A study of Mus musculus with 8 samples.

Results

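Potassium channel genes were followed in mouse undifferentiated pleomorphic sarcoma (UPS), a soft tissue sarcoma, with and without Epas1, the gene of the hypoxia-responsive transcription factor HIF-2α. The genes were taken by symbol: Kcn, further small letters naming the subfamily, and a number, with at least 10 raw counts summed over the 8 tumours. Of 26667 genes in the table, 94 carry such a symbol and 74 of these reached 10 counts. They comprise 73 protein-coding genes and Kcnq1ot1, a non-coding RNA transcribed antisense within Kcnq1. RNA was sequenced from formalin-fixed, paraffin-embedded tumour sections, 1 library per tumour, in 4 KP and 4 KPH2 tumours on a mixed 129/C57BL/6 background. KP mice carry Trp53 fl/fl. KPH2 mice carry the alleles of the KP mice and Epas1 fl/fl in addition. Tumours of both groups were raised in hind limb muscle of adult male and female mice by injection of an adenovirus expressing Cre recombinase, so host cells that the virus did not reach kept Epas1. By PCR, the study found that Epas1 was efficiently deleted in KPH2 tumours. The study set 1 knockout tumour aside as an outlier, and KPH2 1 is absent from the deposited table of 7 normalized tumours. Tests therefore compared KP 5 to 8 with KPH2 2 to 4, KPH2 1 is given apart, and the calls are also given over all 8 tumours. The labels do not say whether any tumours came from the same mouse, so p-values measure the spread between these tumours.

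Potassium channels set the resting potential of cells and return it to rest after excitation. Inward rectifiers (Kcnj) and leak channels of the K2P family (Kcnk) hold the resting potential, whereas voltage-gated pores (Kcna to Kcnd, Kcnh and Kcnq) open on depolarization. Silent subunits (Kcnf, Kcng, Kcns and Kcnv) form no channel alone and join other voltage-gated pores, and auxiliary subunits (Kcnab, Kcne and Kcnip) alter gating or trafficking. Pores of the Kcnn and Kcnma subfamilies open with intracellular calcium. Skeletal muscle fibres are rich in inward rectifiers, and non-excitable and malignant cells use potassium channels for volume control and calcium entry.

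The libraries held 6463221 to 13155510 counts, of which 6739 to 13285 per tumour fell on Kcn genes. Values below are counts per 1000000 counts of the TMM-scaled library size (CPM). Epas1 was at 59.1, 83.0, 86.7 and 83.9 CPM in KP 5, 6, 7 and 8, at 53.3, 37.7 and 42.4 CPM in KPH2 2, 3 and 4, and at 32.6 CPM in KPH2 1. Every KPH2 tumour lay below every KP tumour, but the log2 fold change of -0.81 (SE 0.19) did not pass the threshold over all genes (adjusted p = 0.0742, edgeR's quasi-likelihood test, Benjamini-Hochberg adjusted), nor did the -0.91 over all 8 tumours (adjusted p = 0.117). Summed skeletal muscle markers, 30 of 30 listed genes found and none at 0, ran from 1824 to 3338 CPM in KP, from 4342 to 19626 CPM in KPH2 2 to 4, and stood at 1505 CPM in KPH2 1.

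In KPH2 2 to 4, 3 potassium channel genes were higher than in KP at an adjusted p under 0.05, and 0 were lower. The 3 were Kcnj12, an inward rectifier of excitable cells, Kcnf1, a silent voltage-gated subunit, and Kcnk5, an acid-sensitive leak channel. They came from 44 members that passed the filter on low counts, whereas 1.24% of all 14867 tested genes were called higher and 0.72% lower. The 30 other members were too low to test. Kcnj12 passed the filter only through KPH2 2 to 4, the tumours in which it was high. At an unadjusted p under 0.05, 5 members were higher and 4 lower, against 8.5% and 9.26% of all genes. DESeq2 on the same tumours called 4 members higher, adding Kcnc2, and 3 lower, namely Kcnh4, Kcnab2 and Kcne4, against 4.02% and 3.91% of all genes. Fitted log2 fold changes were positive for 26 members and negative for 18, with a median of 0.24 against -0.02 over all tested genes. With KPH2 1 included, edgeR tested 44 members and called 0, with 1 gene (0.00675%) called among 14805 tested. DESeq2 over all 8 tumours called 2 members higher, Kcnf1 and Kcnk5, and 2 lower, Kcnh4 and Kcnab2, against 1.57% and 2.55% of all genes. The plot of fitted fold changes by class sets the 3 called genes beside the members that were not called.

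**Figure D1:**
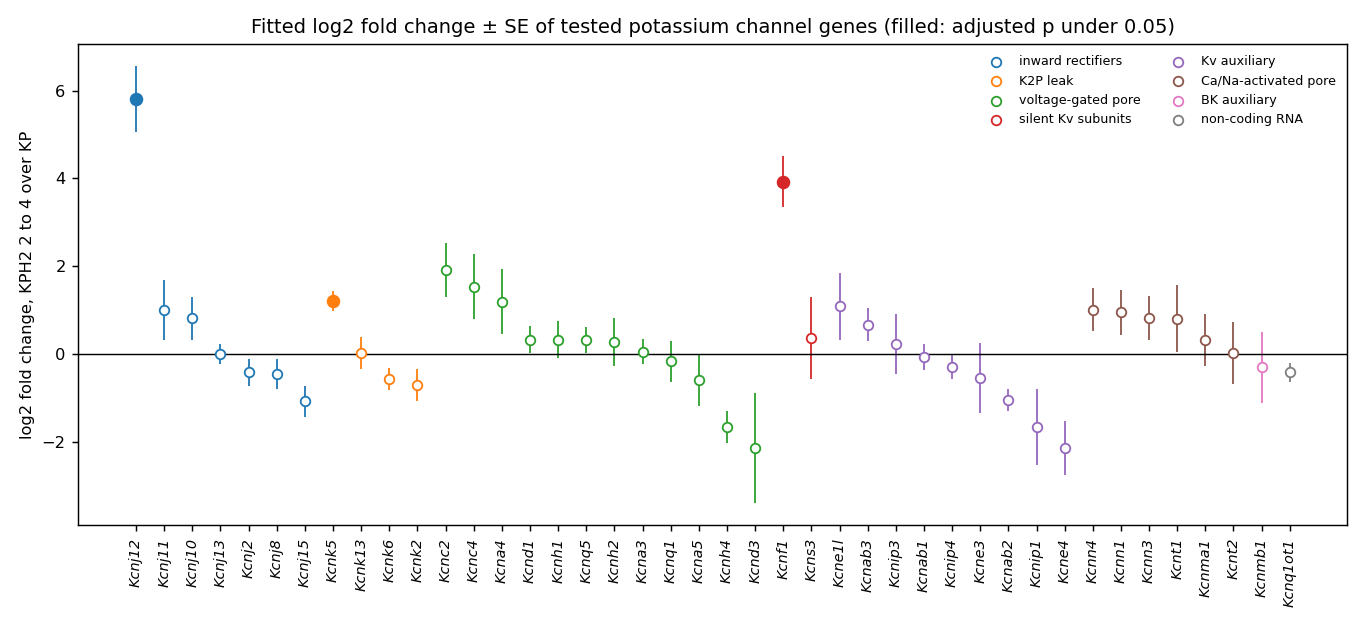
Fitted log2 fold change (vertical axis, KPH2 2 to 4 over KP) with its standard error for 42 of the 44 tested potassium channel genes, ordered by class on the horizontal axis. Filled points mark the genes with an adjusted p under 0.05, Kcnj12, Kcnf1 and Kcnk5, which lie at 5.81, 3.93 and 1.21, and the other 39 are open.

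Windows at a transcript start are shown for the 3 genes called by edgeR. Each holds 250 bases before and 50 after a RefSeq transcript start in GRCm38.p6, 5′ to 3′ on the strand of the gene. The window of Kcnj12 is chr11:61065554-61065853 on the plus strand, at a start inside the span of the gene, which begins upstream at 61022564, that of Kcnf1 chr12:17176839-17177138 on the minus strand and that of Kcnk5 chr14:20181733-20182032 on the minus strand. Capitals mark matches, on either strand, to ACGTG or GCGTG, the core letters of hypoxia response elements, or to CAGCTG, an E-box sequence of myogenic factors.
Kcnj12: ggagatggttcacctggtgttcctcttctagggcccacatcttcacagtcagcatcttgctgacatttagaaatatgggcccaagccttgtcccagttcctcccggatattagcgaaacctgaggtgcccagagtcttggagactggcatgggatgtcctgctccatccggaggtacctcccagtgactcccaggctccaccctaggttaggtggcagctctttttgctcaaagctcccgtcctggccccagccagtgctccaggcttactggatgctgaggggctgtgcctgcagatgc
Kcnf1: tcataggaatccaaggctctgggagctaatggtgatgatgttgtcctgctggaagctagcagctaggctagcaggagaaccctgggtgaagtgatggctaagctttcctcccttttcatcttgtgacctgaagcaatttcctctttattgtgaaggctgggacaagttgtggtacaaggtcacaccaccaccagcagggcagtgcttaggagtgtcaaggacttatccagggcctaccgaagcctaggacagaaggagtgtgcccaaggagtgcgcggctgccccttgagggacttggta
Kcnk5: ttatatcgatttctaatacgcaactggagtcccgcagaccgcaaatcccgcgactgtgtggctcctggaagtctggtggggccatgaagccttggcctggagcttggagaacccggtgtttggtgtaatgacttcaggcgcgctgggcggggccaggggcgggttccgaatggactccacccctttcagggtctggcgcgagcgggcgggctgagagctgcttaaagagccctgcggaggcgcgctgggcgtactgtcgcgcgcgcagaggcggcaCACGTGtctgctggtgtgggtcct
Kcnk5 held the palindrome CACGTG just after the start, which gives 1 ACGTG match on each strand, and the windows of Kcnj12 and Kcnf1 held no match to these letters. Such matches are common. ACGTG occurred in 19.6% of 32851 windows of all genes and in 15 of the 76 windows of members (19.7%), GCGTG in 32.4% and 34.2%, and CAGCTG in 16.3% and 25.0%.

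Kcnj12 (Entrez Gene 16515) spans 61022564 to 61073269 of chromosome 11 on the plus strand. It was at 0, 0.424, 0.148 and 0.603 CPM in KP 5, 6, 7 and 8, against 23.6, 7.49 and 20.6 CPM in KPH2 2, 3 and 4. KPH2 1 had 0.160 CPM and lay within the KP tumours, while the 3 other KPH2 tumours stood far above all of them. The KP levels rest on 0, 3, 1 and 8 raw counts and that of KPH2 1 on 2, against 263, 75 and 183 in KPH2 2, 3 and 4. At the depth of KP 5, a count of 0 allows a level of up to 0.222 CPM (3 counts, counting error only). The means were 0.294 ± 0.271 CPM (SD, n = 4) and 17.2 ± 8.58 CPM (SD, n = 3). The fitted log2 fold change was 5.81 (SE 0.76, adjusted p = 0.0183, edgeR's quasi-likelihood test, Benjamini-Hochberg adjusted), and its size depends on the handling of the near-zero KP counts. Leaving out each tumour in turn moved it between 5.31 and 6.68. The call was lost without KP 7 (adjusted p = 0.0529) and without KPH2 2 (adjusted p = 0.0545). Over all 8 tumours Kcnj12 failed the filter on low counts, and without that filter, a setting chosen after seeing the data, edgeR gave 5.41 with an adjusted p of 0.175.

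Kcnf1 (Entrez Gene 382571) lies on the minus strand of chromosome 12 from 17172100 to 17176888. Its levels were 2.15, 1.27, 3.85 and 0.452 CPM in KP 5, 6, 7 and 8 and 34.1, 17.6 and 33.6 CPM in KPH2 2, 3 and 4. KPH2 1, at 2.47 CPM, again fell among the KP tumours, and KPH2 2 and 4 were close to each other with KPH2 3 lower. The mean rose from 1.93 ± 1.45 CPM (SD, n = 4) to 28.5 ± 9.42 CPM (SD, n = 3), a log2 fold change of 3.93 (SE 0.59, adjusted p = 0.0241, edgeR). It stayed between 3.56 and 4.44 when each tumour was left out, and the call was lost without KP 6 (adjusted p = 0.0601), KPH2 2 (0.0837) or KPH2 4 (0.0565). With KPH2 1 included the log2 fold change was 3.54 (adjusted p = 0.152).

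Kcnk5 (Entrez Gene 16529) lies on the minus strand of chromosome 14 from 20140057 to 20181782. It was at 7.04, 5.37, 5.77 and 6.86 CPM in KP 5, 6, 7 and 8, against 18, 14.0 and 11.7 CPM in KPH2 2, 3 and 4. KPH2 1 had 7.26 CPM, just above the highest KP tumour and well below the other KPH2 tumours. The KP mean was 6.26 ± 0.817 CPM (SD, n = 4) and the KPH2 mean 14.6 ± 3.17 CPM (SD, n = 3), with a log2 fold change of 1.21 (SE 0.23, adjusted p = 0.0409, edgeR). Of the 3 called genes it had the smallest change. Its call was kept in 1 of the 7 fits that leave out a tumour, that without KP 5, with log2 fold changes of 1.03 to 1.35 and adjusted p-values of 0.0482 to 0.146. With KPH2 1 it was 1.02 (adjusted p = 0.184).

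The levels of the 3 called genes were set beside the skeletal muscle markers, which were higher in KPH2 2 to 4. KPH2 2 to 4 lay above every KP tumour both in the marker sum and in each of the 3 genes. KPH2 3 had the highest muscle marker sum, 19626 CPM, and the lowest Kcnj12 and Kcnf1 of KPH2 2 to 4. KPH2 4, at 4342 CPM, lay closest to the KP tumours in the sum and carried 20.6 CPM of Kcnj12. KP 5, at 3338 CPM, had no count of Kcnj12, and KP 8, at 3156 CPM, had the highest KP level, 0.603 CPM. KPH2 1 had the lowest sum of all tumours, 1505 CPM, and was the only KPH2 tumour with Kcnj12 (0.160 CPM) and Kcnf1 (2.47 CPM) at KP levels. Kcnk5 was at 7.26 CPM in KPH2 1 (1505 CPM) and at 11.7 CPM in KPH2 4 (4342 CPM). It was at 14.0 CPM in KPH2 3 (19626 CPM) and at 18 CPM in KPH2 2 (12638 CPM). KPH2 1 had more Kcnk5 than any KP tumour, although its muscle sum was below theirs. With the mean log2 level of the 30 markers as a covariate, the log2 fold change was 6.42 for Kcnj12 and 5.15 for Kcnf1 (adjusted p = 0.266 for each, edgeR). For Kcnk5 it was 0.74 (adjusted p = 0.849, edgeR), against 1.21 without the covariate. The mean marker level was 3.14 to 4.33 in KP and 4.82 to 7.14 in KPH2 2 to 4. With no overlap between the groups, this fit cannot separate group from muscle content. The part of muscle in the levels of the 3 genes was not tested. In bulk RNA, fewer cells of a type and less RNA per cell cannot be told apart.

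**Figure D2:**
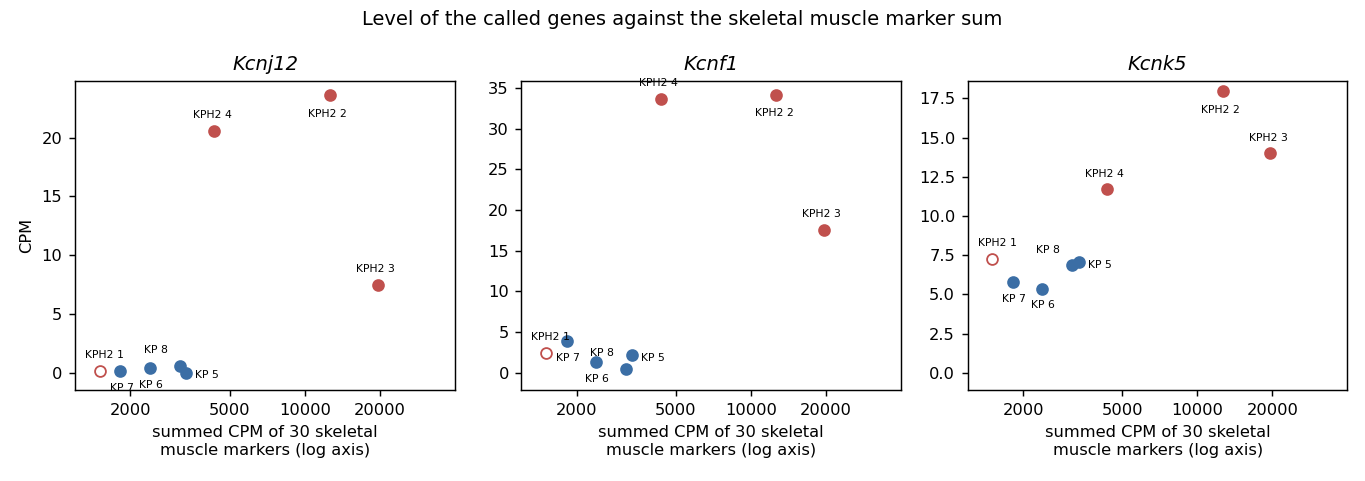
Level (CPM, vertical axes) of Kcnj12, Kcnf1 and Kcnk5 in each tumour against the summed CPM of 30 skeletal muscle markers (horizontal log axes). Blue points are KP 5 to 8, filled red points KPH2 2 to 4 and the open red point KPH2 1. KPH2 3 lies farthest right at 19626 CPM without the highest level of any of the 3 genes.

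Among 11 members typical of skeletal muscle fibres, 9 were tested, and edgeR called 1 higher (Kcnj12) and 0 lower, against 1.24% and 0.72% of all tested genes. Their fold changes were positive for 6, with a median of 0.33 against -0.02 over all genes. DESeq2 called Kcnj12 higher and Kcne4 lower, against 4.02% and 3.91% of all genes. These were also the members of the list without overlap between KP and KPH2 2 to 4, against 8.73% higher and 8.15% lower of all tested genes. Kcnj12 passed the low-count filter only through KPH2 2 to 4. Kcnj2, another strong inward rectifier of muscle, was at 20.8, 53.7, 51.2 and 40.9 CPM in KP, against 32.2, 36.2 and 24.5 CPM in KPH2 2, 3 and 4. Its groups overlapped, and the log2 fold change was -0.42 (SE 0.32, adjusted p = 0.541, edgeR). Kcnj11, the pore of the ATP-sensitive channel of muscle, ran from 0.141 to 1.88 CPM in KP and from 1.01 to 3.90 CPM in KPH2 2 to 4. Kcnc4, a fast voltage-gated pore, was at 4.10 CPM in KPH2 3, the tumour with the highest muscle sum, and at 0.141 to 1.35 CPM in the other 7. Kcna7 and Kcnc1 were too low to be tested. Kcna7 was likewise highest in KPH2 3, at 3.30 CPM, with 0.239 to 1.36 CPM in the other tumours, and Kcnc1 ran from 0.160 to 1.43 CPM.

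The other inward rectifiers did not share the pattern of Kcnj12. Of 7 tested Kcnj genes, 3 had positive and 4 negative fold changes, and the median was -0.01. Kcnj15 was at 3.63, 3.25, 6.96 and 4.29 CPM in KP 5, 6, 7 and 8, against 1.98, 2.50 and 1.91 CPM in KPH2 2, 3 and 4. KPH2 1, at 2.23 CPM, also lay below every KP tumour. The log2 fold change was -1.08 (SE 0.36, adjusted p = 0.165, edgeR). Kcnj8, the ATP-sensitive pore of vascular smooth muscle and pericytes, ran from 6.15 to 16.1 CPM in KP and from 8.0 to 10.7 CPM in KPH2 2 to 4 (log2 fold change -0.46, SE 0.34, adjusted p = 0.531, edgeR). Kcnj13 was the most even gene of this family, at 4.67 to 5.77 CPM in the 7 compared tumours and at 8.46 CPM in KPH2 1. Kcnj3, Kcnj4, Kcnj9 and Kcnj14 were below the filter, at no more than 1.17 CPM in any tumour.

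Of the K2P leak channels, 8 had 10 counts and 4 were tested. Kcnk6, the most abundant of them per kilobase of exon, was at 16.5, 28.2, 29.5 and 22.5 CPM in KP, against 13.2, 14.7 and 20.9 CPM in KPH2 2, 3 and 4, with 11.4 CPM in KPH2 1. Only KPH2 4 of the 4 KPH2 tumours exceeded the lowest KP tumour, with a log2 fold change of -0.57 (SE 0.26, adjusted p = 0.298, edgeR). Kcnk2, a mechanically gated leak channel, was at 18, 7.20, 20.9 and 10.9 CPM in KP, against 10.3, 8.39 and 7.43 CPM in KPH2 2, 3 and 4 (log2 fold change -0.71, SE 0.37, adjusted p = 0.359, edgeR). Kcnk13 ran from 3.78 to 7.55 CPM in KP and from 4.58 to 9.69 CPM in KPH2 2 to 4. Kcnk10 was carried by single tumours, at 3.53 CPM in KP 6 and 2.55 CPM in KPH2 1 and at no more than 0.527 CPM elsewhere. Kcnk3 was highest in KPH2 1, at 5.82 CPM, and in KP 5, at 2.82 CPM.

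Voltage-gated pores were the largest class, with 28 members of which 14 were tested, 10 with positive and 4 with negative fold changes. Kcnc2, a fast-deactivating channel known from neurons, was at 1.04, 4.24, 3.85 and 6.86 CPM in KP 5, 6, 7 and 8, against 12.9, 7.09 and 25.1 CPM in KPH2 2, 3 and 4. KPH2 3 lay only just above KP 8, and KPH2 1 had 0.319 CPM, below all KP tumours. The log2 fold change was 1.91 (SE 0.61) and was not called by edgeR (adjusted p = 0.159), whereas DESeq2 gave an adjusted p of 0.0254.

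In the other direction, Kcnh4, an ether-a-go-go family pore, was at 2.30, 2.12, 1.92 and 1.88 CPM in KP 5, 6, 7 and 8, against 0.539, 0.499 and 0.900 CPM in KPH2 2, 3 and 4. The KP values were the closest together of the 43 tested members counted in every KP tumour, and KPH2 1 (0.638 CPM) lay with the other KPH2 tumours. The counts behind it were few, 84 over the 4 KP tumours and 19 over KPH2 2 to 4. The log2 fold change was -1.67 (SE 0.38), and it missed the threshold in edgeR (adjusted p = 0.0646) and passed in DESeq2 (adjusted p = 0.0423). Kcnd3, a transient outward pore, differed within the groups: KP 5 had 7.93 CPM and the other KP tumours 0.296 to 1.13 CPM, with 0.180 to 1.3 CPM in KPH2 2 to 4 (log2 fold change -2.15, SE 1.26, adjusted p = 0.430, edgeR, and -3.59 without KPH2 3, adjusted p = 0.371). Kcna3, the channel of T cells and macrophages, was nearly level, at 6.15 to 11.7 CPM in KP and 7.01 to 11.3 CPM in KPH2 2 to 4. Kcnh2 spread from 3.67 to 25.3 CPM in KP and covered the range of the KPH2 tumours. Kcnd1 lay between 2.63 and 5.99 CPM in all 8 tumours. Kcna6, below the filter, was at 2.97 CPM in KP 6, 3.85 CPM in KP 7 and no more than 0.719 CPM in the other tumours.

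Silent subunits were scarce apart from Kcnf1. Of 6 members, Kcnf1 and Kcns3 were tested. Kcns3 was at 0.890, 4.52, 0.740 and 2.86 CPM in KP, against 0.180, 3.5 and 5.06 CPM in KPH2 2, 3 and 4, and at 0 in KPH2 1. It varied as much within as between the groups (log2 fold change 0.37, SE 0.93, adjusted p = 0.883, edgeR). The leading Kcng and Kcnv members, Kcng2 and Kcnv2, stayed at or below 0.599 CPM in every tumour.

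Auxiliary subunits of voltage-gated channels had more negative than positive fold changes, 6 against 3 of 9 tested, with a median of -0.29 and none called by edgeR. Over all tested genes 48.0% were positive, with a median of -0.02. With KPH2 1 included, 4 of the 9 were positive and the median was -0.13. Kcnab2, a β-subunit of the Kcna channels found in neurons and leukocytes, was at 17.7, 17.1, 28.3 and 31.0 CPM in KP 5, 6, 7 and 8, against 10.4, 11.4 and 12.3 CPM in KPH2 2, 3 and 4. The KPH2 tumours were close together, and KPH2 1, at 14.0 CPM, also lay below KP. The log2 fold change was -1.05 (SE 0.26), with an adjusted p of 0.0815 in edgeR and 0.00952 in DESeq2. Summed macrophage markers, 8 of 9 listed genes found and none at 0, ran from 1953 to 3976 CPM in KP and from 1431 to 2158 CPM in KPH2 2 to 4, and their part in the level of Kcnab2 was not tested. Kcne4, an inhibitory subunit, was at 3.41, 12.6, 21.3 and 7.16 CPM in KP, against 2.61, 1.70 and 3.15 CPM in KPH2 2, 3 and 4. KP 5 lay near the KPH2 tumours and KPH2 1, at 8.94 CPM, within KP. The log2 fold change was -2.14 (SE 0.61, adjusted p = 0.123, edgeR), and DESeq2 gave an adjusted p of 0.00617. Without KP 5 it was -2.44 and called (adjusted p = 0.0443), and without KP 7 it was -1.62. Over all 8 tumours it was -1.41 (adjusted p = 0.360 in edgeR and 0.202 in DESeq2). With the muscle score as a covariate it was -0.25, in a fit that cannot separate score from group.

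Kcnab3 was the only auxiliary subunit with all 4 KPH2 tumours above KP, at 1.98, 1.40 and 1.69 CPM in KPH2 2, 3 and 4 and 1.68 CPM in KPH2 1 with 0.706 to 1.36 CPM in KP. The gap was narrow, with a log2 fold change of 0.67 (SE 0.37, adjusted p = 0.394, edgeR), and its exons overlap those of Kcnab3os on the opposite strand. The libraries were stranded, but the strand setting of the counting is not given in the sources used here, so reads of overlapping genes on opposite strands cannot be told apart. Kcnab1 was at 43.0 CPM in KPH2 1 and at 12.9 to 26.6 CPM in the 7 other tumours. Kcnip1, a calcium-binding subunit of Kcnd channels, was at 12.2, 3.11, 3.26 and 8.29 CPM in KP, against 0.449, 5.19 and 0.788 CPM in KPH2 2, 3 and 4 (log2 fold change -1.66, SE 0.87, adjusted p = 0.368, edgeR). KPH2 3 stood apart, and without it the value was -3.45 (adjusted p = 0.0971). Kcne3 spread from 2.08 to 13.8 CPM in KP and from 0.999 to 9.44 CPM in KPH2 2 to 4.

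Calcium- and sodium-activated pores had positive fold changes in 6 of 6 tested members, with a median of 0.81, against 48.0% positive and a median of -0.02 over all tested genes. Of these members 0 were called (1.24% and 0.72% of all genes), each overlapped between the groups, and the class as a whole was not tested. Kcnn4, the intermediate-conductance calcium-activated channel of blood cells, epithelia and many tumours, was at 68.7, 15.7, 22.3 and 46.0 CPM in KP 5, 6, 7 and 8, against 74.7, 52.9 and 104 CPM in KPH2 2, 3 and 4. KP 5 overlapped the KPH2 tumours, and KPH2 1, at 45.5 CPM, lay within KP. The mean was 38.2 ± 24.1 CPM (SD, n = 4) against 77.2 ± 25.6 CPM (SD, n = 3), a log2 fold change of 1.0 (SE 0.49, adjusted p = 0.330, edgeR). Kcnn1 ran from 0.565 to 2.37 CPM in KP and from 2.16 to 4.4 CPM in KPH2 2 to 4 (log2 fold change 0.94, adjusted p = 0.388, edgeR). Kcnma1, the large-conductance pore, was highest in KPH2 3 at 21.3 CPM and lowest in KPH2 4 at 3.83 CPM, and its auxiliary subunit Kcnmb1 was highest in KP 7 at 4.29 CPM. Kcnt2, a sodium-activated pore, was at 16.0 CPM in KP 7 and 16.4 CPM in KPH2 1 and at 1.56 to 9.59 CPM elsewhere. Kcnu1 was below the filter, at 0.424 to 1.71 CPM.

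Kcnq1ot1, which regulates imprinted genes around Kcnq1, took most of the Kcn counts, 43449 over the 8 tumours. It was at 580, 648, 602 and 408 CPM in KP, against 335, 417 and 503 CPM in KPH2 2, 3 and 4, with 731 CPM in KPH2 1. The tumours overlapped, and the log2 fold change was -0.42 (SE 0.21, adjusted p = 0.348, edgeR). Kcnq1, on the opposite strand, ran from 4.08 to 10.8 CPM in KP and from 2.50 to 8.44 CPM in KPH2 2 to 4.

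Of the 44 tested members, 5 had KPH2 2 to 4 all above KP (Kcnj12, Kcnf1, Kcnk5, Kcnc2 and Kcnab3) and 4 all below (Kcnh4, Kcnab2, Kcne4 and Kcnj15), against 8.73% and 8.15% of all tested genes. All 4 KPH2 tumours were above KP for Kcnk5 and Kcnab3 and below it for Kcnh4, Kcnab2 and Kcnj15, against 3.75% and 4.46% of all genes. KPH2 1 thus lay on the KPH2 side for 2 of the 5 higher genes and 3 of the 4 lower ones. It was inside the KP range for 23 of the 44 members, above it for 8 and below it for 13. The plot of these 9 genes shows the values of each tumour.

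**Figure D3:**
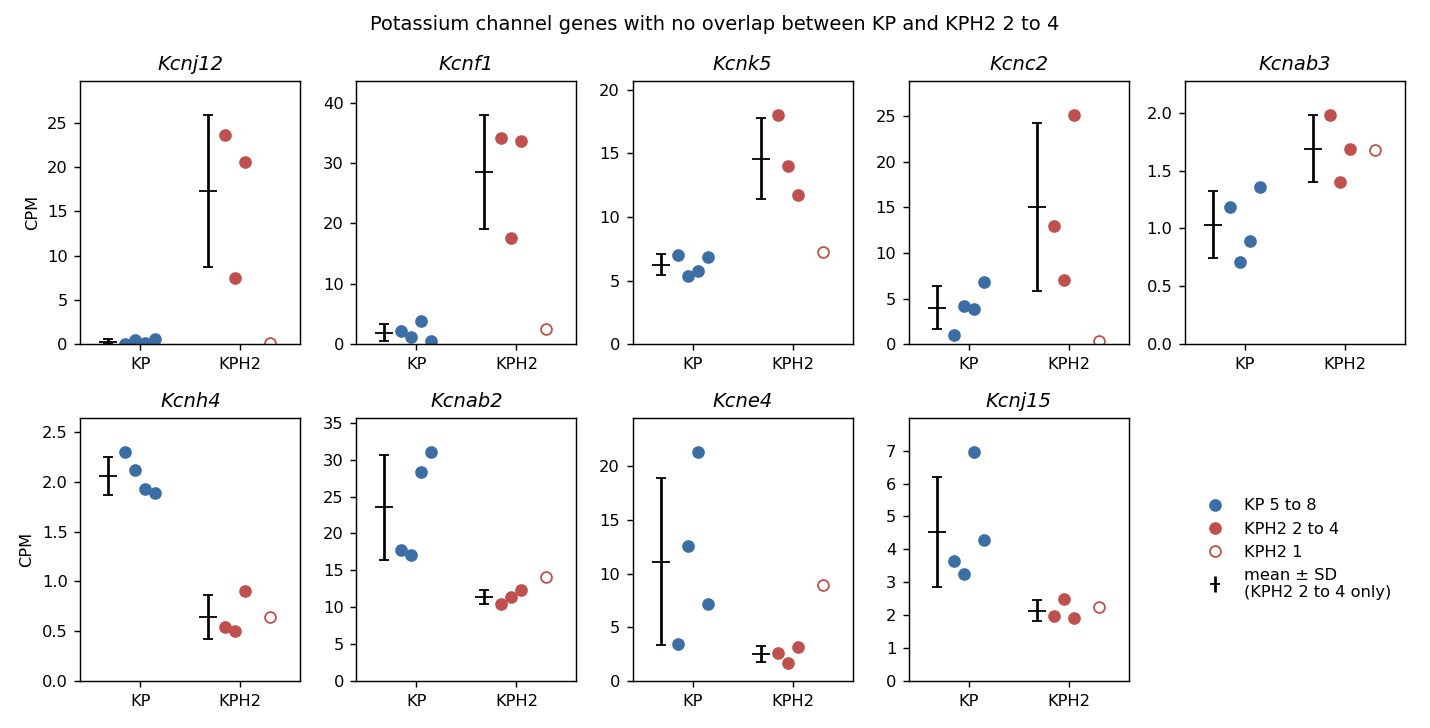
CPM (vertical axes) in each tumour for the 9 tested genes whose KP and KPH2 2 to 4 tumours did not overlap, 5 higher (upper row) and 4 lower (lower row) in KPH2. Blue points are KP, filled red points KPH2 2 to 4, open red points KPH2 1, and black bars the mean ± SD of the filled points. KPH2 1 lies within or below KP for Kcnj12, Kcnf1 and Kcnc2.

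Spread within the groups was wide. Over the 43 tested members counted in every KP tumour, the highest KP tumour was a median of 2.86 times the lowest, from 1.22 times for Kcnh4 to 26.8 times for Kcnd3. The standard error exceeded the size of the log2 fold change for 13 of the 44 tested members. The map of levels by tumour shows this unevenness beside the changes of Kcnj12 and Kcnf1.

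**Figure D4:**
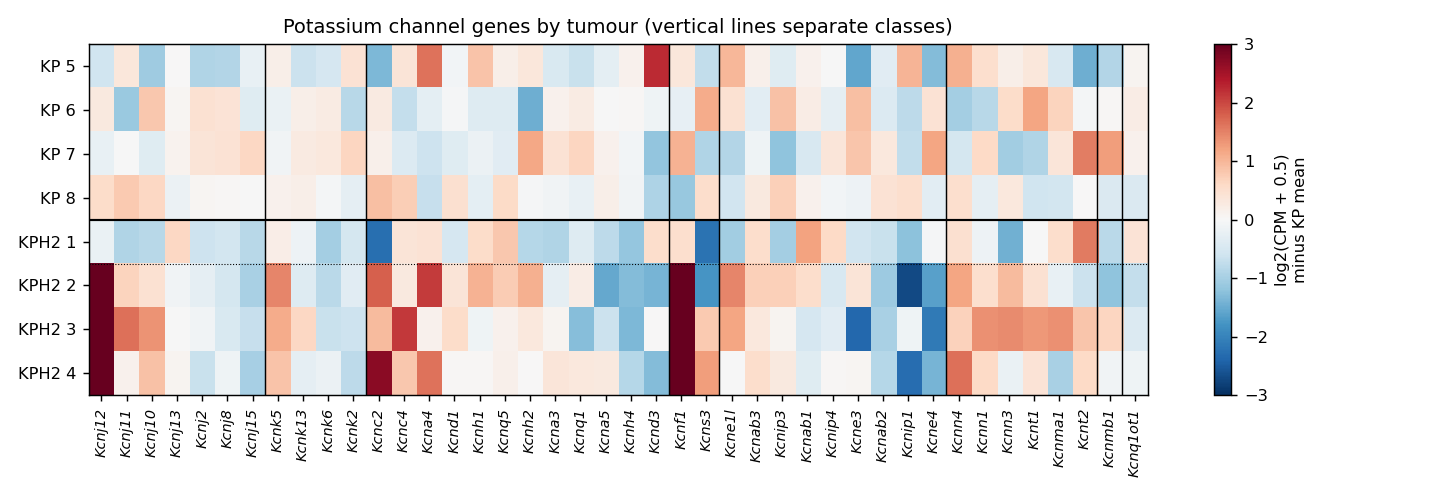
Level of 42 of the 44 tested potassium channel genes (columns, by class) in each tumour (rows), as log2(CPM + 0.5) minus the KP mean, with red above and blue below it and the colour scale ending at 3 on either side. Kcnj12 and Kcnf1 are dark red in KPH2 2 to 4 and pale in KPH2 1.

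For levels between genes, CPM was divided by exon length in kilobases. The 73 coding members summed to 107, 98.6, 115 and 109 CPM per kb in KP 5, 6, 7 and 8, to 140, 117 and 148 CPM per kb in KPH2 2, 3 and 4, and to 99.2 CPM per kb in KPH2 1. KPH2 2 to 4 exceeded every KP tumour, KPH2 3 by little. Kcnn4 was the most abundant coding member in 7 of 8 tumours, at 9.55% to 34.5% of the sum, and in KP 6 it came after Kcnj2 and Kcne3, at 7.83%. Kcnab1, Kcnj2, Kcnk6, Kcnj13 and Kcna3 followed by mean level, from 6.60 to 4.41 CPM per kb against 26.5 for Kcnn4. In KPH2 2 and 4, Kcnj12 (8.59 and 7.49 CPM per kb) and Kcnf1 (7.13 and 7.02 CPM per kb) were among the 5 most abundant members.

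By class, silent subunits summed to 1.03 to 2.05 CPM per kb in KP, 0.654 in KPH2 1 and 5.13 to 8.83 in KPH2 2 to 4. Calcium- and sodium-activated pores gave 12.8 to 37.5 CPM per kb in KP and 36.1 to 55.9 in KPH2 2 to 4, overlapping at KP 5. Voltage-gated pores gave 17.7 to 24.1 and 24.2 to 30.7 CPM per kb, the lowest KPH2 value just above the highest KP value, and 14.9 in KPH2 1. Auxiliary subunits of voltage-gated channels ran the other way, from 21.7 to 30.5 CPM per kb in KP and from 13.7 to 21.7 in KPH2 2 to 4, meeting at KP 5 and KPH2 2. KPH2 1, at 27.0 CPM per kb, lay within KP for this class. Inward rectifiers (12.2 to 23.3 in KP, 21.2 to 24.1 in KPH2 2 to 4) and K2P channels (13.1 to 17.5 and 13.1 to 14.7) overlapped. These sums are descriptions without a test.

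**Figure D5:**
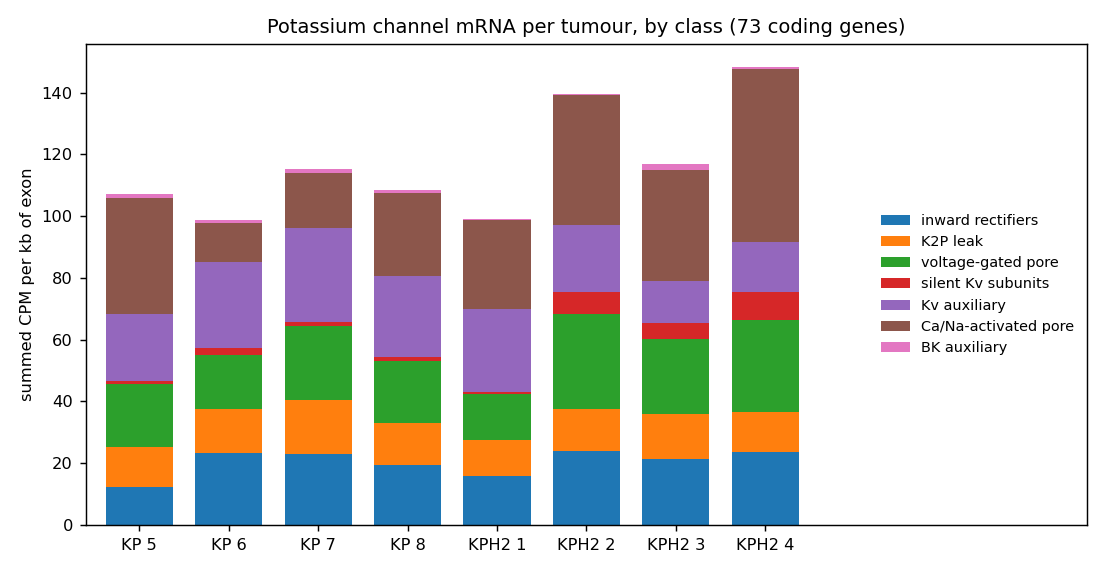
Summed CPM per kb of exon (vertical axis) of the 73 coding potassium channel genes in each of the 8 tumours, stacked by class. The red segment, silent subunits, is thickest in KPH2 2 to 4, at 5.13 to 8.83 CPM per kb, and the brown segment holds Kcnn4.

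Several members are known from neurons, so 8 neuronal markers were read in the same tumours. Their sum was 66.0 to 261 CPM in KP, 306 to 534 CPM in KPH2 2 to 4 and 74.8 CPM in KPH2 1. Nefl and Stmn2 made up much of it. Nefl, a neurofilament subunit, was at 109, 24.9, 6.36 and 78.0 CPM in KP and 189, 137 and 197 CPM in KPH2 2, 3 and 4, and was the only 1 of the 8 without overlap. Stmn2, a tubulin-binding protein, was at 75.2, 36.0, 42.8 and 120 CPM in KP and at 109, 108 and 215 CPM in KPH2 2, 3 and 4, with overlap. Nefm ran from 9.18 to 39.6 CPM in KP and from 38.1 to 98 CPM in KPH2 2 to 4. Tubb3 ran from 4.59 to 20.9 CPM in KP and from 19.5 to 21.1 CPM in KPH2 2 to 4. Syt1, Elavl4 and Snap25 did not follow the sum. Syt1 was highest in KP 5, at 4.3 CPM, and lowest in KPH2 3, at 0.0999 CPM. Elavl4 was highest in KPH2 1 and KP 7, at 2.07 CPM each, and lowest in KPH2 2, at 0.0899 CPM. Snap25 was highest in KPH2 1, at 9.73 CPM. The neuronal nuclear marker Rbfox3 was at 0.449 CPM or less in every tumour and at 0 in KP 5. Summed Schwann cell markers were 23.6 to 35.5 CPM in KP and 31.4 to 38.1 CPM in KPH2 2 to 4, with 3 of 8, among them Sox10 and Gfap, at 0 in some tumour. The part of these markers in the levels of Kcnf1 and Kcnc2 was not tested. The sums of the other lists overlapped between KP and KPH2 2 to 4 for endothelium (283 to 559 and 301 to 309 CPM), smooth muscle and pericytes (482 to 1051 and 400 to 1083 CPM), T cells (12.7 to 34.7 and 14.6 to 26.7 CPM) and mesenchymal tumour genes (18602 to 43471 and 22396 to 31188 CPM). Adipocyte markers summed to 19.0 to 47.1 CPM in KP and 13 to 17.3 CPM in KPH2 2 to 4, with 5 of 8 at 0 in some tumour.

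Other genes of potassium transport, such as pumps, cotransporters and endoplasmic reticulum channels, were read from a list of 37, of which 24 were tested and 0 called by edgeR, against 1.24% of all genes called higher and 0.72% lower. Their fold changes were positive for 10, with a median of -0.10 against -0.02 over all genes. At an unadjusted p under 0.05, 3 were higher and 1 lower, against 8.5% and 9.26% of all genes. Among the higher ones were Tmem38a, a potassium channel of the sarcoplasmic reticulum (log2 fold change 1.55, adjusted p = 0.072), and the sodium-potassium pump subunit Atp1b1 (1.56, adjusted p = 0.115). The lower one was the cotransporter Slc12a2 (-0.57, adjusted p = 0.088).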

How the data were processed

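RNA from sections of 8 UPS tumours was depleted of ribosomal RNA and made into stranded libraries. The authors deposited a table of raw read counts of all 8 tumours, from reads aligned to GRCm38 by STAR and assigned, where unique, to RefSeq genes by htseq-count (per the submitters' notes, CASAVA 1.8.2, STAR 2.4, HTSeq 0.6.1 and DESeq2 1.6). Regularized log2 values that the authors made with DESeq2 were deposited over 7 tumours, without KPH2 1, used here for 1 alternative, and over all 8, not used here. Library depth was 6463221 to 13155510 counts, and low genes rest on few of them.

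Counts were fitted in R 4.3.3 with edgeR 4.0.16 (TMM normalization, minimum count 10, minimum total count 15, robust quasi-likelihood test) over KP 5 to 8 and KPH2 2 to 4. The Benjamini-Hochberg adjustment covered every tested gene, and the threshold was 0.05. CPM used TMM library sizes, and exon lengths came from GENCODE transcripts matched to RefSeq. The alternatives were all 8 tumours with and without the low-count filter (the latter added after seeing the data), upper-quartile or DESeq2 size-factor normalization, a mean count of at least 50 or no filter, omission of each tumour, the muscle score as a covariate (prior count 2), edgeR without robust estimates, DESeq2 1.42.0, and limma 3.58.1 on the deposited log2 values. Scripts were tested on simulated counts.

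Genes named by rule were called members, the 10 with the smallest p in each direction, Kcnj12, the most abundant member of each subfamily per kilobase, and Epas1. This gave 31 members beside some that are not reported here, and others named were chosen after their values were seen. The members and gene lists were chosen with earlier results of these data known.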

Additional observations from a re-analysis of the deposited data

Results flagged for a closer look

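In 4 of 64 sets of 4 tumours, 1 tumour lay far from the other 3 by Dixon's test at the 95% level, where chance alone gives about 1 set in 20. Kcnd3 was at 7.93 CPM in KP 5, with the next KP tumour at 1.13 CPM. Kcnab1 was at 13 CPM in KP 7, with the nearest at 20.2 CPM. Kcnc4 was at 4.10 CPM in KPH2 3, with the next KPH2 tumour at 1.35 CPM, and KPH2 3 also had the highest sum of skeletal muscle markers, whose part in this value was not tested. Epas1 was at 59.1 CPM in KP 5, below the other KP tumours, the nearest at 83.0 CPM.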

How the results depend on the processing

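The count of 3 potassium channel genes called higher was also found with DESeq2's size factors, upper-quartile normalization, no filter, a mean count of at least 50, edgeR without robust estimates and limma on the deposited log2 values, where the log2 fold changes of Kcnj12, Kcnf1 and Kcnk5 were 2.34, 2.16 and 0.64, since these values are shrunk for low genes. It was 0 over all 8 tumours, with or without the low-count filter, and 0 with the muscle score as a covariate, and it ran from 0 to 3 when each tumour was left out (0 without KPH2 2, and 1 without KP 6, KP 7 or KPH2 4). The count of 0 called lower became 3 with DESeq2 and 2 with DESeq2 over all 8 tumours, and ran from 0 to 1 when each tumour was left out (1 without KP 5, Kcne4). The fits with 7 tumours against all 8, and without single tumours, differ in the number of samples. The cause of the other differences was not tested. Over all 8 tumours with the filter, edgeR called 0.00675% of all tested genes. Except for edgeR and DESeq2 over 7 and over all 8 tumours, the share of all genes called is not given. The counts of the remaining fits therefore cannot be told apart from a change over all genes. The muscle score did not overlap between KP and KPH2 2 to 4, so that fit cannot separate score from group. At these depths, 30 of 74 members did not pass the filter and were not tested.

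Over the alternatives, the 28 named members that were tested gave 431 values of unchanged direction and call, 19 that lost a call, 7 that gained one and 33 that turned sign, none of the last with a call. Over all 8 tumours with edgeR, DESeq2 and edgeR without a filter, the log2 fold change became -0.15, -0.15 and -0.14 for Kcna3, 0.37, 0.37 and 0.37 for Kcnab1, and -0.061, -0.048 and -0.055 for Kcns3. With the muscle score it became -0.24 for Kcnc4, -0.41 for Kcnd1, 1.56 for Kcne3, 0.28 for Kcnj8, 0.18 for Kcnk6, -1.21 for Kcnma1, 0.58 for Kcnmb1 and 0.037 for Kcnq1ot1. With each tumour left out in turn it ran from -0.13 to 0.21 for Kcna3, from -0.47 to 0.13 for Kcnab1, from -0.10 to 0.75 for Kcnh2, from -0.67 to 0.72 for Kcnma1, from -1.08 to 0.50 for Kcnmb1, from -0.29 to 0.93 for Kcns3 and from -0.31 to 0.83 for Kcnt2. No paired analysis was possible because the groups share no replicate numbers.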
